A study of Mus musculus with 8 samples.

Results

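The Wnt genes examined here comprise the ligands (Wnt1 to Wnt16), the ligand acyltransferase Porcn, the Frizzled receptors, the co-receptors Lrp5 and Lrp6, R-spondins with their receptors and ubiquitin ligases, the secreted antagonists of the Sfrp, Dkk and Wif families, the nuclear factors of the TCF/LEF family and the scaffold Axin2. They were chosen by symbol, which leaves out relatives such as Frzb of the Sfrp family and the R-spondin receptor gene Lgr6. In all, 52 of the 77981 genes of the table belong to the set. Of these, 37 had a mean of at least 1 TPM (a level scaled for transcript length and library total) over the 8 libraries and are described, while 15 were below it. RNA came from mouse kidney, with the cell type label IMCD (inner medullary collecting duct, the last tubule segment to modify urine). Both groups carried loxP sites around most of Avp, the gene for vasopressin, with one site in the first intron and the other beyond the 3′ end, and both received tamoxifen, which switches on inducible Cre recombinases. The 4 control libraries, called control 1 to 4, had the genotype AVP-flox alone, and the other 4 had AVP-flox;Cre, which adds the recombinase, and are called Cre 1 to 4. Neither the promoter that drives Cre nor the age or sex of the mice is stated in the labels, and no group carried Cre without floxed Avp. A difference between the groups therefore cannot be told apart from an effect of Cre itself. Nothing in the labels says that replicates were separate mice. Sex-linked expression differed within each group, so the 4 libraries of a group did not all come from 1 mouse. Libraries with the same sex pattern may still be repeats, so the p-values reflect the spread of these 8 samples, which may be partly technical.

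Wnt proteins are secreted, lipid-modified ligands that bind a Frizzled receptor together with Lrp5 or Lrp6. In the canonical branch this stops the destruction complex (Axin, Apc and the kinases Gsk3 and casein kinase 1) from degrading β-catenin, which then activates TCF/LEF factors on target genes. Several targets act as brakes: Axin2 rebuilds the destruction complex, and the ubiquitin ligases Rnf43 and Znrf3 remove Frizzled from the cell surface unless an R-spondin bound to Lgr4 or Lgr5 withdraws the ligases. In the mouse kidney, Wnt7b from the collecting duct is known for the formation of the medulla, Wnt9b and Wnt4 for the induction of nephrons, and Wnt11 for branching of the ureteric bud.

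Expression of Avp, the floxed gene, was 0 to 0.27 TPM over the 8 libraries; vasopressin is made in the hypothalamus, so kidney RNA does not check the deletion. Aqp2, the vasopressin-regulated water channel that defines the principal cell, stood at 14915 to 18131 TPM in the controls and at 5443 to 7036 TPM in the Cre group, and all 10 markers of the collecting duct principal cell were at 1 TPM or more in every library. The estrogen receptor gene Esr1, part of which is fused to Cre in tamoxifen-inducible recombinases, was at 0.91 to 2.23 TPM in the controls and at 54.2 to 202 TPM in the Cre group. Male-pattern Y-linked expression was seen in 1 control and 2 Cre libraries. Cre 2 stood apart with 33576 genes above 0 TPM, against 50951 to 58232 in the others, and Cre 4 with 23412 genes at 1 TPM or more, against 16608 to 20765. Control 2 differed from the other controls in markers of the thick ascending limb and distal tubule, which summed to 361 TPM there, 1897 to 2277 TPM in control 1, 3 and 4, and 558 to 812 TPM in the Cre group. Transcripts with GC-rich 5′ ends were lower in the Cre group. For 1650 genes with over 70% GC in the first 300 nt and a control mean of at least 10 TPM, a median was taken per library. It lay between -0.02 and 0.04 (log2, relative to the control mean) in the controls and at -0.06, -0.23, -0.14 and -0.18 in Cre 1 to 4. Choosing genes by their control level by itself favours lower Cre values. Without that limit, the median log2 fold change was -0.12 for 2185 tested genes with 70% to 80% GC. It was -0.26 for 188 genes over 80% and 0.08 for 3413 genes up to 50%. The number of reads behind the TPM values is unknown.

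The feedback genes Axin2, Rnf43 and Znrf3 rose in the Cre group, with no overlap between the groups, and Axin2 and Rnf43 had the smallest adjusted p of the Wnt genes. Of the ligands, Wnt10a, Wnt11 and Wnt5a rose and Wnt7b, the most abundant, fell. Fzd6 rose among the receptors, while Fzd9 and the co-receptor gene Lrp6 fell. Of the 37 genes, 13 rose and 4 fell in the Cre group (limma on log2(TPM + 1), Benjamini-Hochberg adjusted p under 0.05 over 19043 genes), and 20 did not pass. In bulk RNA, more or fewer cells of a type and more or less RNA per cell cannot be told apart. The 17 genes past the threshold are 45.9% of the described Wnt genes, where 27.3% of all genes tested passed, 13.1% as higher and 14.2% as lower. The median log2 fold change of the 37 was 0.32, against -0.01 for all genes tested. Groups did not overlap for 19 of the 37 (51.4%), against 29.5% of all genes tested. The group mean of Sfrp5 reached 1 TPM only in the Cre group and that of Wnt10b only in the controls, so a difference in these 2 genes is built into the choice of described genes. Without control 2, Cre 2 and Cre 4, 7 of the 37 passed (18.9%, against 13.5% of all genes tested in that fit): Axin2, Rnf43, Fzd6, Wnt10a, Wnt5a and Dkk3 as higher and Fzd9 as lower.

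**Figure D1:**
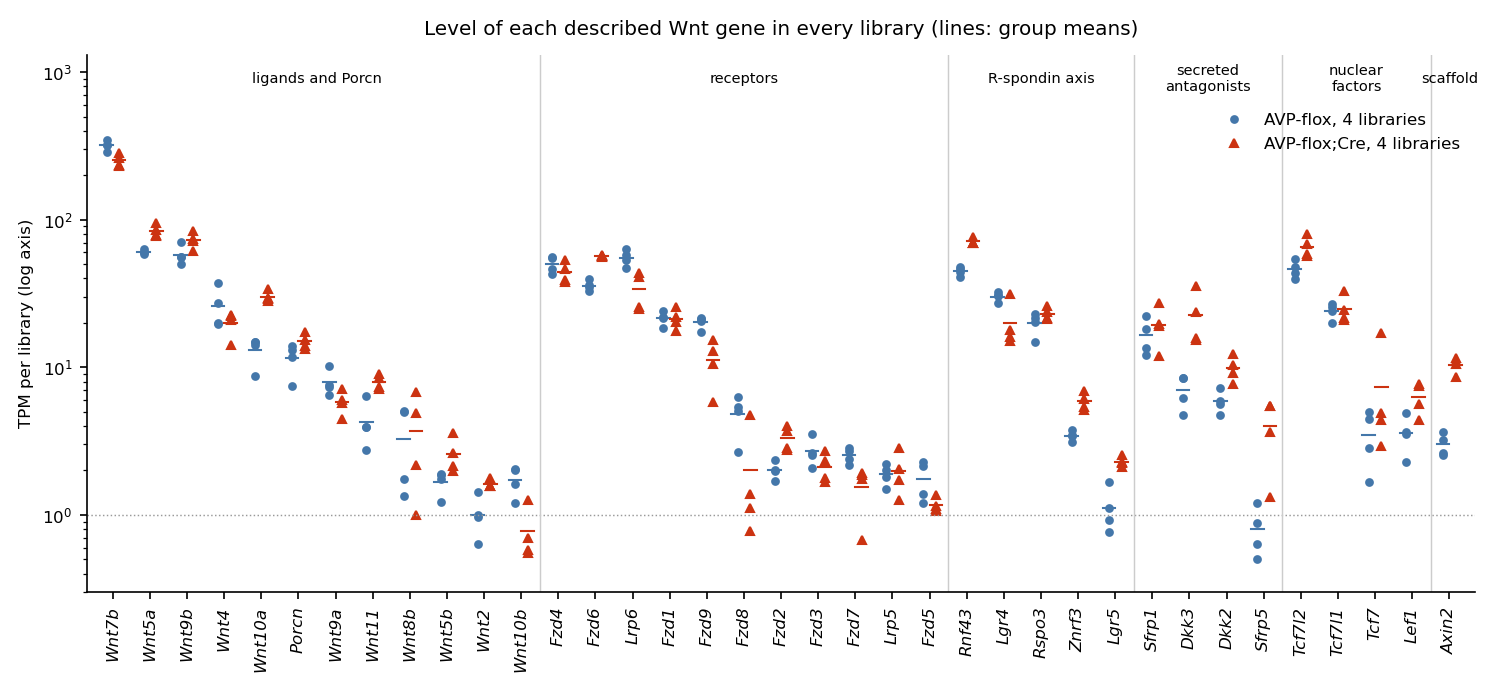
TPM of the 37 described Wnt genes in every library (log axis), ordered by role and then by mean level; circles are controls (AVP-flox), triangles Cre libraries (AVP-flox;Cre), horizontal lines the group means and the dotted line 1 TPM. Wnt7b lies above all other Wnt genes in each library, and the Axin2, Rnf43 and Znrf3 points of the 2 groups do not overlap.

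Upstream sequences of 3 Wnt genes that rose are shown, because TCF/LEF factors act by binding DNA and the risen genes include known TCF/LEF targets. They are the 250 bases before the RefSeq transcription start on GRCm38.p6, 5′ to 3′ on the strand of the gene. Axin2 and Rnf43 have the smallest adjusted p. Wnt11 is the gene past the threshold whose upstream bases hold CTTTGAT or CTTTGAA, the forms searched as a full motif. Capitals mark the TCF/LEF motif CTTTGAT and, where it stands alone, its core CTTTG, both of them here read on the opposite strand.
Axin2 (chr11:108920099-108920348, + strand): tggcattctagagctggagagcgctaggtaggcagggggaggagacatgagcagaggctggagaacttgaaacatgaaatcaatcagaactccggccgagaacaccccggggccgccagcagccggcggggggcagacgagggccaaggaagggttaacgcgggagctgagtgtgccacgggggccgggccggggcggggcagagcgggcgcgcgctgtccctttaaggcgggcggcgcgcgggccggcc
Rnf43 (chr11:87662837-87663086, + strand): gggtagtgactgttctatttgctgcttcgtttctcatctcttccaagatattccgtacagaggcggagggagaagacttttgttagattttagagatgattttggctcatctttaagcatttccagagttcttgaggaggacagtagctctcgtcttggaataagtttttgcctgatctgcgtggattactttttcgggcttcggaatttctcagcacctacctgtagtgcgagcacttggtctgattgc
Wnt11 (chr7:98834862-98835111, + strand): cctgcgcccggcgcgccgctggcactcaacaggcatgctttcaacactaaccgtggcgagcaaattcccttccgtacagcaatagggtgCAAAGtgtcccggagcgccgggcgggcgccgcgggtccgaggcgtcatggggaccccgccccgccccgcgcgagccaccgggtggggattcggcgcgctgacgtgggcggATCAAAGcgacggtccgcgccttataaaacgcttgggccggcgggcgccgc
The motif CTTTGAT or CTTTGAA, searched on both strands of these 250 bases, is held by 7.48% of 32851 RefSeq promoters, and CTTTG, which both contain, by 48.6%. Forms with other letters after the core, such as CTTTGTT in a Tcf7l2 start, were not searched as a full motif. Upstream sequence matched 9 of the 17 Wnt genes past the threshold, with 15 starts, and 1 of these starts, in Wnt11, held a full motif, 51 bases before the start on the opposite strand. The core was held by 8 of the 15 starts, all of them in Lef1, Tcf7l2, Wnt11 and Dkk2, and several are starts of the same gene. No start of Sfrp5, Fzd9 or Lgr4 held it. Neither Axin2 (69.2% GC) nor any of the 2 Rnf43 starts held these letters in this window, which says nothing of sites elsewhere in the genes. The Rnf43 start shown is the upstream one (44.4% GC), and the other has 45.2% GC.

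Wnt7b dominated the ligands. It was at 346, 320, 290 and 323 TPM in control 1 to 4 and at 282, 233, 264 and 234 TPM in Cre 1 to 4. Every Cre library was below every control, by a small margin at control 3 and Cre 1. Wnt7b thus fell 1.26-fold (log2 fold change -0.34, SE 0.08, adjusted p = 0.0141), a call that ended under median-of-ratios scaling (-0.36, adjusted p = 0.0582). Its share of the summed TPM of the 19 Wnt ligand genes was 61.2% to 68.5% in the controls and 48.4% to 55.2% in the Cre group, while the sum itself overlapped, at 473 to 526 TPM and 435 to 512 TPM. The second most abundant ligand gene, Wnt5a, acts mostly through β-catenin-independent signalling. It was at 63.1, 60.1, 60.6 and 58.4 TPM in the controls and at 85.7, 78.6, 77.0 and 95.6 TPM in the Cre group. The controls were tightly grouped and all lay below the Cre group. Wnt5a rose 1.39-fold (log2 fold change 0.46, SE 0.08, adjusted p = 0.00252).

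Wnt10a, known as a canonical ligand of skin, hair and teeth, had the largest rise of the ligands. Its levels were 8.73, 14.9, 14.2 and 14.8 TPM in the controls and 28.0, 29.1, 34.1 and 29.5 TPM in the Cre group. Control 1 was the lowest control, and the groups were far apart. Wnt10a rose 2.29-fold (log2 fold change 1.16, SE 0.16, adjusted p = 0.000751). The ligand gene Wnt11, whose upstream bases are shown above, was at 3.91, 2.76, 3.96 and 6.35 TPM in the controls and at 9.06, 7.35, 8.43 and 7.08 TPM in the Cre group. The highest control, control 4, came close to the lowest Cre library. Wnt11 rose 1.88-fold (log2 fold change 0.81, SE 0.20, adjusted p = 0.0141).

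The remaining 7 ligand genes did not pass. Wnt9b was at 58.1 ± 8.5 and 72.4 ± 8.9 TPM (SD, n = 4 per group, control first here and below) with an adjusted p = 0.0744 in limma, and it passed as higher without control 4 (log2 fold change 0.41), without Cre 2 (0.39) and in 4 other alternatives. Wnt4 was at 26.0 ± 8.3 and 19.9 ± 3.9 TPM, with a 95% interval of the log2 fold change from -0.82 to 0.13. Wnt9a stood at 7.88 ± 1.58 and 5.82 ± 1.07 TPM. Wnt8b varied most within the controls, from 1.34 to 5.04 TPM, and its interval ran from -0.96 to 1.13. Wnt5b and Wnt2 did not overlap between groups, at 1.22 to 1.88 against 1.97 to 3.56 TPM and 0.63 to 1.42 against 1.56 to 1.77 TPM, but had adjusted p = 0.179 and 0.188 in limma. Wnt10b, which shares a genomic neighbourhood with Wnt1, was at 1.72 ± 0.40 and 0.77 ± 0.33 TPM (log2 fold change -0.62, limma adjusted p = 0.0724) and passed as lower without Cre 4 (-0.75) and in 3 other alternatives. Porcn, which attaches the lipid that all Wnt proteins need for secretion, was at 11.54 ± 2.87 and 14.99 ± 1.87 TPM (not past, limma adjusted p = 0.151).

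Among the receptors, Fzd4, Fzd6 and Lrp6 were the most abundant. Fzd4, which also serves as the receptor for Norrin, was at 42.6, 46.6, 55.5 and 55.1 TPM in the controls and at 39.3, 37.9, 46.2 and 53.6 TPM in the Cre group. The groups overlapped, and the log2 fold change of -0.18 had a 95% interval from -0.46 to 0.11. Fzd6, known for planar cell polarity, was at 39.4, 35.2, 32.8 and 35.9 TPM in the controls and at 57.1, 56.6, 58.0 and 56.04 TPM in the Cre group. The 4 Cre values were nearly equal and lay well above the controls. Fzd6 rose 1.59-fold (log2 fold change 0.66, SE 0.07, adjusted p = 0.000253). Together Fzd4 and Fzd6 made up 59.6% to 61.2% of the summed TPM of the 10 Frizzled genes in the controls and 63.0% to 75.2% in the Cre group, with sums of 134 to 149 and 131 to 153 TPM.

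Lrp6, a co-receptor of canonical signalling, was at 47.2, 57.8, 63.1 and 53.6 TPM in the controls and at 40.9, 24.6, 43.7 and 25.8 TPM in the Cre group. Cre 2 and 4 were the lowest, and Cre 1 and 3 lay just below the controls. Lrp6 fell 1.64-fold (log2 fold change -0.74, SE 0.19, adjusted p = 0.0164), and without control 2, Cre 2 and Cre 4 it was at -0.35 and not past the threshold (adjusted p = 0.137). Its relative Lrp5 was much lower, at 1.88 ± 0.30 and 1.98 ± 0.66 TPM, with an interval of the log2 fold change from -0.45 to 0.51. The receptor gene Fzd9 was at 21.3, 17.3, 21.4 and 20.6 TPM in the controls and at 15.3, 5.85, 12.8 and 10.5 TPM in the Cre group. Cre 2 was the lowest of a group that varied more than the controls. Fzd9 fell 1.81-fold (log2 fold change -0.87, SE 0.23, adjusted p = 0.0207), and its call ended without control 1 (-0.84, adjusted p = 0.0502) or control 3 (-0.84, adjusted p = 0.0543).

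Of the other Frizzled genes, Fzd1 was at 21.5 ± 2.3 and 21.3 ± 3.4 TPM, and its interval ran from -0.30 to 0.26. Fzd8 was at 2.67 to 6.26 TPM in the controls and at 4.73 TPM in Cre 1 but 0.78 to 1.38 TPM in Cre 2 to 4 (log2 fold change -1.08, limma adjusted p = 0.0529). Without Cre 1 it passed as lower (-1.45, adjusted p = 0.00502), as it did without control 1 (-1.29, adjusted p = 0.0376). Fzd2, at 2.00 ± 0.27 and 3.31 ± 0.62 TPM, and Fzd7, at 2.53 ± 0.30 and 1.55 ± 0.59 TPM, did not overlap between groups and lay on opposite sides of the controls, with limma adjusted p = 0.0557 and 0.132. Fzd3 and Fzd5 were at 2.70 ± 0.61 against 2.12 ± 0.49 TPM and at 1.76 ± 0.54 against 1.16 ± 0.14 TPM, and neither passed.

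Of the 5 described genes of the R-spondin axis, 4 passed, where 27.3% of all genes tested did, and the calls of Lgr4 and Lgr5 depended on single libraries. Rnf43, a membrane ubiquitin ligase that clears Frizzled, was the most abundant of them, at 44.0, 47.5, 41.1 and 46.2 TPM in the controls and at 69.4, 76.4, 69.4 and 69.9 TPM in the Cre group. The spread within each group was small beside the gap between them. Rnf43 rose 1.59-fold (log2 fold change 0.66, SE 0.07, adjusted p = 0.000220). Znrf3, its paralog with the same function, was at 3.4, 3.45, 3.13 and 3.77 TPM in the controls and at 5.35, 6.12, 5.17 and 6.93 TPM in the Cre group. It rose 1.71-fold without overlap (log2 fold change 0.63, SE 0.14, adjusted p = 0.00954).

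The R-spondin receptor genes Lgr4 and Lgr5 went opposite ways. Lgr6, a receptor gene outside the set, was at 5.11 ± 0.76 and 3.17 ± 0.99 TPM (log2 fold change -0.57, not past, limma adjusted p = 0.0530). Lgr5, known as a stem cell marker and a target of β-catenin, was at 0.92, 0.76, 1.68 and 1.12 TPM in the controls and at 2.24, 2.10, 2.29 and 2.55 TPM in the Cre group. These levels are low, and the groups did not overlap. Lgr5 rose 2.05-fold (log2 fold change 0.65, SE 0.20, adjusted p = 0.0386). Its call ended without control 1, 2 or 4 or Cre 1, 3 or 4, at log2 fold changes of 0.57 to 0.66 and adjusted p = 0.0733 to 0.0965. Lgr4, the receptor found broadly in epithelia, was at 27.2, 30.7, 32.2 and 30.4 TPM in the controls and at 31.3, 16.0, 17.9 and 15.2 TPM in the Cre group. Cre 1 sat among the controls and the other 3 libraries were far below. Lgr4 fell from 30.1 ± 2.1 to 20.1 ± 7.5 TPM, at a log2 fold change of -0.62 (SE 0.20, adjusted p = 0.0411), with p = 0.114 in the two-sided exact permutation test of the means. Its call ended after removal of the 5′ GC trend (-0.50, adjusted p = 0.0556) and without any 1 library other than Cre 1, at log2 fold changes of -0.66 to -0.51 and adjusted p = 0.0594 to 0.0992. Rspo3, an R-spondin ligand that mesenchymal and endothelial cells make in other tissues, was at 19.9 ± 3.6 and 23.1 ± 2.1 TPM (not past, adjusted p = 0.278 in limma).

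Axin2, a standard readout of canonical signalling, had the largest rise of the Wnt genes on the log2(TPM + 1) scale, while Sfrp5 had the largest as a ratio of means. Its levels were 2.53, 3.23, 3.62 and 2.63 TPM in the controls and 8.60, 10.5, 11.0 and 11.6 TPM in the Cre group. The lowest Cre library was more than double the highest control. Axin2 rose 3.48-fold, from 3.00 ± 0.51 to 10.4 ± 1.3 TPM on average (log2 fold change 1.52, SE 0.15, adjusted p = 0.000121), and had p = 0.0286 in the two-sided exact permutation test, the smallest possible with 4 against 4. Its adjusted p lay between 8.05e-05 and 0.00968 in the 24 alternatives. A list of other known β-catenin target genes had 6 of 18 tested members higher, 2 lower and 10 not past, where 13.1% of all genes tested were higher and 14.2% lower, with a median log2 fold change of 0.12. The feedback genes Nkd1 and Nkd2, which act on Dishevelled, were among those that rose. Nkd1 was at 13.1, 12.7, 15.2 and 21.1 TPM in the controls and at 36.5, 31.4, 30.2 and 33.2 TPM in the Cre group (2.12-fold, adjusted p = 0.000849 in limma). Nkd2 went from 3.98 ± 0.17 to 12.0 ± 1.9 TPM (3.02-fold, limma adjusted p = 0.000127). Tnfrsf19, a receptor of the TNF family induced by β-catenin, rose 3.65-fold from 34.8 ± 7.5 to 127 ± 8 TPM (adjusted p = 2.66e-05 in limma). Pdgfra rose 2.11-fold and is also a marker of fibroblasts. The growth factor gene Fgf18 (-1.21) and Id2 (-0.33), also on the list, fell.

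**Figure D2:**
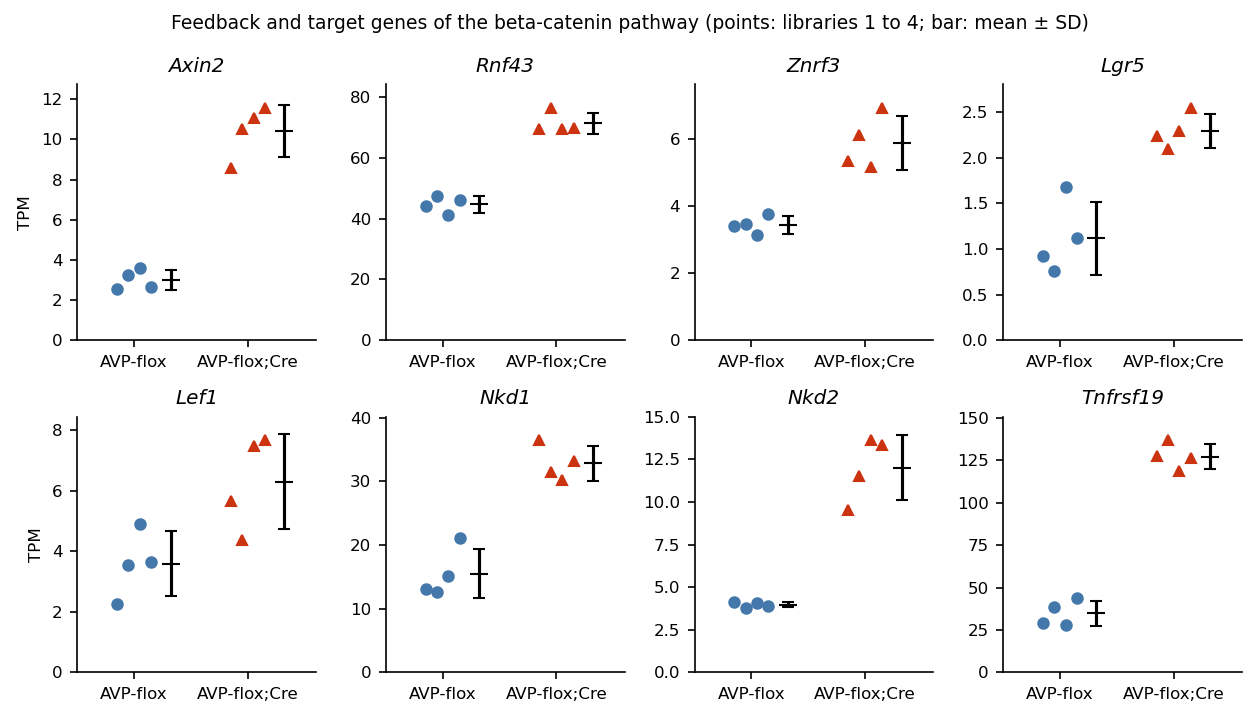
TPM in each library of 5 Wnt genes that rose (Axin2, Rnf43, Znrf3, Lgr5 and Lef1), with the mean ± SD of 4 libraries beside the points. Also shown are 3 other β-catenin targets picked from those that rose (Nkd1, Nkd2 and Tnfrsf19). Targets that fell or did not pass are not shown. The groups overlap for Lef1 and for none of the other 7 genes, and every axis starts at 0.

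The nuclear factors bind DNA for β-catenin. Tcf7l2, the TCF of most adult epithelia, was at 39.6, 43.6, 47.6 and 53.8 TPM in the controls and at 68.1, 56.7, 58.9 and 79.5 TPM in the Cre group. Control 4 and Cre 2 nearly met. Tcf7l2 rose 1.43-fold (log2 fold change 0.50, SE 0.13, adjusted p = 0.0160). Lef1, itself a β-catenin target, was at 2.27, 3.54, 4.90 and 3.65 TPM in the controls and at 5.68, 4.38, 7.49 and 7.68 TPM in the Cre group. Cre 2 lay below control 3, so the groups overlapped. Lef1 rose 1.76-fold (log2 fold change 0.68, SE 0.22, adjusted p = 0.0472), close to the threshold, and its call ended without control 1, 2 or 4 or Cre 1, 3 or 4 (0.52 to 0.71, adjusted p = 0.0722 to 0.118). Tcf7l1, mostly a repressor, was at 24.2 ± 3.0 and 24.9 ± 5.5 TPM, with an interval of -0.30 to 0.36. Tcf7, a factor also known from T cells, was at 1.66 to 4.98 TPM in the controls, at 17.1 TPM in Cre 1 and at 2.94 to 4.89 TPM in Cre 2 to 4 (log2 fold change 0.69, not past, limma adjusted p = 0.286). The summed level of 8 macrophage and leukocyte markers was also highest in Cre 1, at 130 TPM. Ptprc, the pan-leukocyte marker, was at 3.38 TPM there. The T cell marker Cd3e was at 0.74 TPM in Cre 1, below its Cre group mean of 0.83 TPM. The part of leukocytes in the Tcf7 level was not tested.

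Of the 4 described secreted antagonists, Dkk2 and Dkk3 rose, Sfrp1 did not pass, and Sfrp5 rose but reached the 1 TPM limit only through the Cre group. The 9 antagonist genes of the set, without Frzb, summed to 24.6 to 38.0 TPM in the controls and 43.6 to 71.3 TPM in the Cre group. Dkk3, a divergent relative of the Dickkopf inhibitors, was at 6.21, 4.75, 8.46 and 8.49 TPM in the controls and at 15.8, 15.3, 23.6 and 35.6 TPM in the Cre group. Cre 4 was the highest, and all 4 lay above the controls. Dkk3 rose 3.23-fold (log2 fold change 1.51, SE 0.27, adjusted p = 0.00281). Dkk2, which binds Lrp5 and Lrp6, was at 4.76, 5.63, 7.20 and 5.87 TPM in the controls and at 9.16, 10.4, 7.68 and 12.2 TPM in the Cre group. Cre 3 was only just above the highest control. Dkk2 rose 1.68-fold (log2 fold change 0.66, SE 0.16, adjusted p = 0.0151). Sfrp5, which binds Wnt proteins directly, was at 0.63, 1.21, 0.50 and 0.88 TPM in the controls and at 5.44, 5.50, 1.32 and 3.64 TPM in the Cre group. Cre 3 was close to the controls and the rest were well above. Sfrp5 rose 4.94-fold as a ratio of means (log2 fold change 1.37, SE 0.33, adjusted p = 0.0134). Sfrp1, the most abundant of the 9 antagonist genes in the controls, was at 12.0, 13.6, 18.2 and 22.1 TPM there. In the Cre group it was at 27.2, 12.0, 19.7 and 19.1 TPM. These ranges overlap widely, and its interval ran from -0.33 to 0.76. Frzb, an Sfrp family gene outside the set, was more abundant, at 42.7 to 55.65 TPM in the controls and 55.3 to 72.6 TPM in the Cre group. It did not pass in limma (log2 fold change 0.33, adjusted p = 0.0549).

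Markers of other cell types also differed between the groups. For the counts that follow, 13.1% of all genes tested were higher and 14.2% lower, 27.3% together. Of 10 markers of interstitial fibroblasts and pericytes, 9 were tested, 4 were higher (Col1a2, Pdgfra, Tagln and Acta2) and 0 lower in limma (5 and 0 at an unadjusted p under 0.05), and 8 or 9 were at 1 TPM or more in each library. Their summed level was 143 to 196 TPM in the controls and 293 to 364 TPM in the Cre group, with the matrix gene Lum below 0.56 TPM in all libraries. Pdgfra, also on the list of β-catenin targets, was at 59.6 to 73.8 TPM and 125 to 178 TPM, a large part of these sums. Papillary surface and urothelium markers summed to 1797 to 2820 and 5012 to 5762 TPM, with 6 of 8 higher and 1 lower. Intercalated cell markers, of which 4 of 7 tested were higher, summed to 223 to 336 and 316 to 436 TPM. Endothelial markers summed to 2252 to 2318 and 1860 to 1938 TPM, with 3 of 7 higher and 2 lower, and those of macrophages and leukocytes to 51.8 to 79.7 and 87.2 to 130 TPM, with 1 of 6 tested higher. Proximal tubule markers summed to 5.08 to 57.4 and 12.8 to 18.3 TPM, with none of 5 tested past the threshold in limma or at an unadjusted p under 0.05. Principal cell markers, 3 of 10 higher and 4 lower, summed to 18144 to 21700 and 8578 to 10389 TPM, mostly Aqp2. The part of these cell types in the differences of Wnt5a, Dkk2, Dkk3, Axin2 and the other Wnt genes was not tested.

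**Figure D3:**
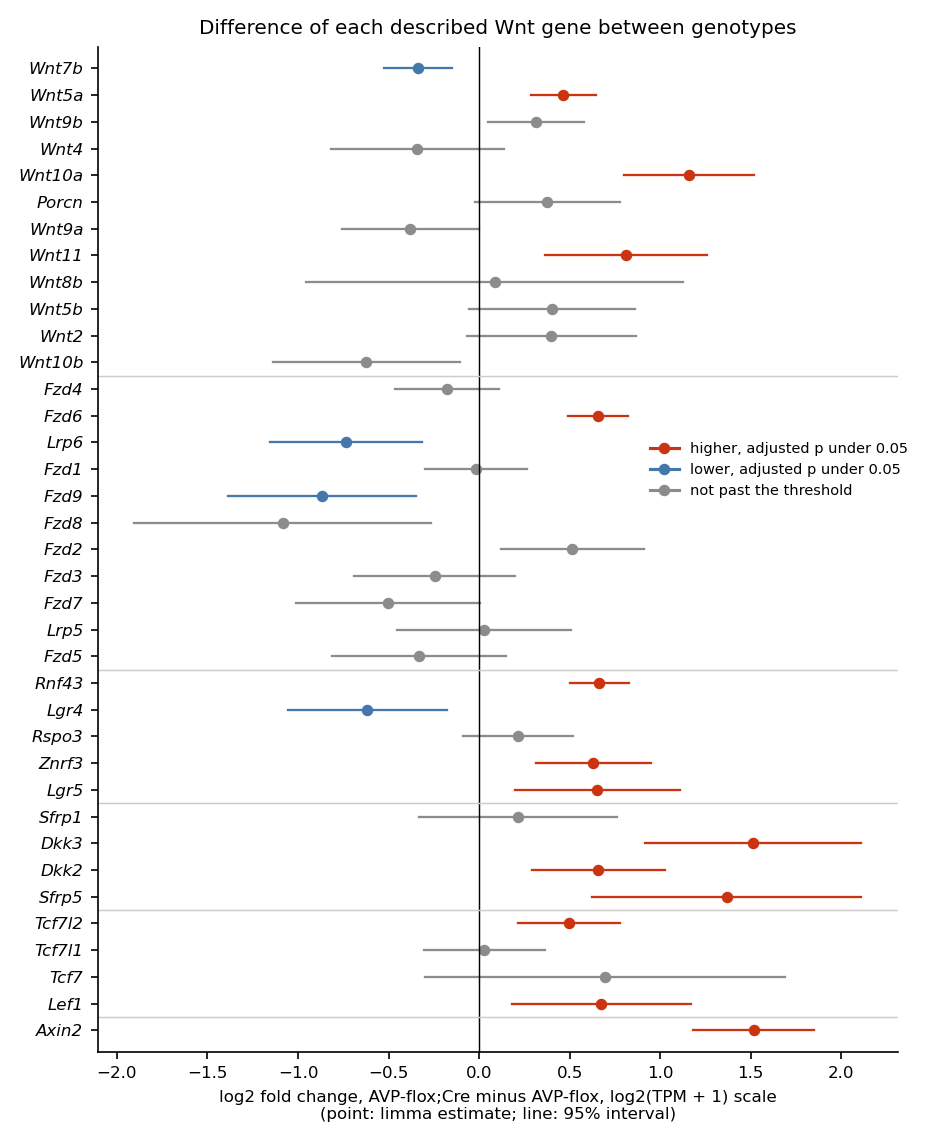
Log2 fold change of the 37 described Wnt genes (Cre minus control, on the log2(TPM + 1) scale) with 95% intervals from limma, in the order of the plot of levels and separated by role. Red marks the 13 higher genes, blue the 4 lower and grey the 20 not past the threshold; Axin2 and Dkk3 lie farthest to the right, at 1.52 and 1.51.

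Genes that work around these members were counted on 5 lists with 112 genes in all, of which 95 were tested, 20 rose and 11 fell (32.6%, against 27.3% of all genes tested). Of 17 tested genes of ligand secretion and extracellular control, 6 rose and 0 fell in limma (35.3%), and 11 did not pass; at an unadjusted p under 0.05, 8 were higher and 2 lower. Wls, the carrier that takes Wnt proteins to the cell surface, rose 1.48-fold from 209 ± 7 to 309 ± 11 TPM (limma adjusted p = 0.000134). Sostdc1, an inhibitor that binds Lrp5 and Lrp6, rose 1.80-fold from 148 ± 34 to 267 ± 29 TPM (limma adjusted p = 0.00391). Cthrc1, a matrix protein that favours non-canonical Wnt complexes, rose 4.08-fold from 8.93 ± 2.39 TPM, and the glypican gene Gpc3 rose 3.80-fold from 3.37 ± 0.85 TPM.

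Of 19 tested genes of the destruction complex, 1 rose and 4 fell (26.3%, close to the 27.3% of all genes tested), with a median log2 fold change of -0.04. Those that fell were Axin1, the constitutive scaffold (from 23.0 ± 6.6 to 10.8 ± 2.6 TPM), Gsk3a, Csnk1e and Csnk1g2. Axin1, the paralog of Axin2, fell 2.14-fold (limma adjusted p = 0.00818). It has a 5′ GC content of 79.0%, and its call ended with the 5′ GC trend removed in the fit with a replicate block (log2 fold change -0.79, adjusted p = 0.0640). Csnk1g2 was at 102 TPM in Cre 1 and at 11.4 to 20.3 TPM in Cre 2 to 4, against 63.6 to 116 TPM in the controls, and its call (-1.85, limma adjusted p = 0.0311) ended without any of control 2 to 4 or Cre 2 to 4 (-1.84 to -1.49, adjusted p = 0.0642 to 0.0796). Csnk1a1, the kinase that primes β-catenin, was the gene that rose. Of 22 genes of Dishevelled, β-catenin and its co-factors, 2 rose and 4 fell (27.3%, the share of all genes tested), with a median of 0.03. The Tle family genes Tle2 and Tle5 had log2 fold changes of 0.89 and -1.38. Tle5 was at 595 TPM in Cre 1, within the 557 to 676 TPM of the controls, and at 131 to 236 TPM in Cre 2 to 4, and it was not past the threshold without control 3 (-1.34, adjusted p = 0.0523) or Cre 2 (-1.24, adjusted p = 0.0542). Ctnnbip1, an inhibitor of β-catenin, rose by 0.45, and Tbl1xr1, a co-factor, fell by 0.85 on the log2 scale. Of 21 planar polarity and alternative receptor genes, 5 rose and 1 fell (28.6%, again close to the share of all genes), with the core polarity gene Vangl1 up 2.19-fold from 38.3 ± 1.5 to 83.9 ± 13 TPM (limma adjusted p = 0.000139), Prickle1 up 2.34-fold, Wdpcp up 2.15-fold and the Wnt receptor gene Ryk down from 30.2 ± 2.1 to 20.4 ± 1.8 TPM.

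The 4 Wnt genes that fell had 5′ GC contents of 69.7% (Wnt7b), 73.7% (Lgr4), 74.3% (Lrp6) and 77.3% (Fzd9). Of the 2185 tested genes with 70% to 80% GC there, 23.9% were lower and 11.3% higher, against 8.76% and 12.9% of the 3413 genes with at most 50%. The risen genes covered the range, from Tcf7l2 at 43.3% and Rnf43 at 49.7% through Dkk2 at 59.0% to Fzd6 at 73.3% and Znrf3 at 82.3%. With each library's trend on 5′ GC removed, 16 Wnt genes passed as higher and 4 as lower, 16 of them shared with the 17. Among the lower genes, Lgr4 dropped out (limma adjusted p = 0.0556) and Fzd8 came in (0.0487). Wnt9b, Fzd2 and Wnt5b came in as higher. In that fit, 30.5% of the 16641 genes with a GC value passed.

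**Figure D4:**
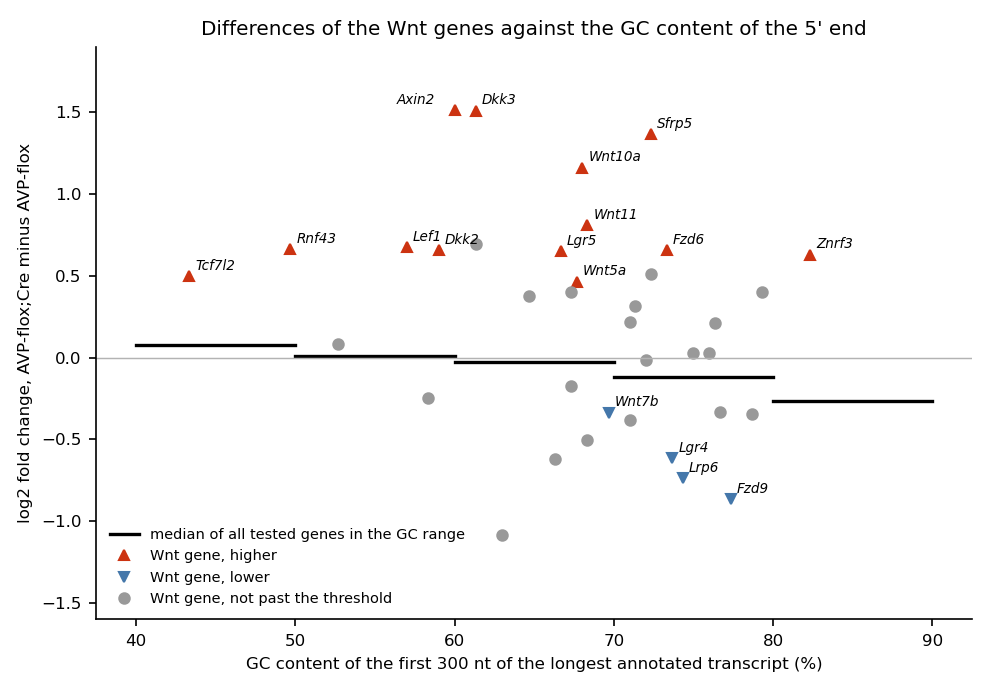
Log2 fold change (Cre minus control) of the 37 described Wnt genes against the GC content of the first 300 nt of the longest annotated transcript; black lines give the median of all tested genes in each GC range, the first drawn from 40%. The medians run from 0.08 in the range up to 50% to -0.26 in that over 80%, the 4 genes that fell lie between 69.7% and 77.3%, and the risen genes spread from 43.3% to 82.3%.

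The 15 Wnt genes under 1 TPM were not tested. Just outside the limit were Fzd10 at a mean of 0.81 TPM and Wnt6 at 0.59 TPM, and just inside it Wnt10b and Wnt2, at 1.25 and 1.31 TPM. Rspo1, an R-spondin, was at 0.53, 1.02, 0.58 and 0.94 TPM in the controls and at 0 to 0.18 TPM in the Cre group. Wnt2b, Wnt3, Wif1, Sfrp2, Wnt16, Wnt1, Wnt8a, Wnt7a, Wnt3a, Sfrp4, Dkk1 and Dkk4 stayed below 1 TPM in every library. Within the controls, the coefficient of variation of the 37 described genes ran from 3.27% for Wnt5a to 61.1% for Wnt8b, with a median of 18.0%.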

How the data were processed

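RNA was sequenced from 8 libraries. Per the labels' protocols, SMART-Seq HT cDNA was amplified over 11 PCR cycles and tagmented with Nextera XT. The submitters' processing notes name STAR and RSEM and give no versions. The deposited table holds TPM made by the authors, with 78298 identifiers. The genome build is not given in the sources used here. TPM keeps no read counts, so depth is unknown and no counting interval is given. WT columns were taken as controls (AVP-flox) and KO columns as Cre libraries (AVP-flox;Cre), number by number.

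Identifiers sharing a symbol were summed, which left 77981 genes. The 19043 genes averaging 1 TPM or more were compared on log2(TPM + 1) with limma 3.58.1 in R 4.3.3 (mean-variance trend, two-sided, Benjamini-Hochberg over all genes tested, threshold 0.05). Folds are ratios of mean TPM. Single genes also had an exact permutation test of the means. GC content came from GENCODE M21 transcripts, matched for 87.4% of tested genes and all 37 described Wnt genes, and promoters from RefSeq on GRCm38.p6, matched by symbol for 34 of 52. The members, lists and tests were chosen with earlier results of these data known. Values per library are given for genes past the threshold and the most abundant of each role. On each other list, the genes past the threshold with the 4 smallest adjusted p were named by rule. Esr1, Cd3e, Ptprc, Fgf18, Id2, Csnk1a1, Frzb and Lgr6 were added after their values were seen. Alternatives were a replicate block, other pseudocounts, filters, scalings and variance models, identifiers not summed, the sex pattern of Xist and Y-linked genes as a covariate, removal of the 5′ GC trend, and libraries left out.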

Additional observations from a re-analysis of the deposited data

Results flagged for a closer look

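Of 74 groups of 4 libraries (37 Wnt genes in 2 genotypes), 6 held a library far from the other 3, where chance gives about 1 in 20. Tcf7 was at 17.1 TPM in Cre 1 against 2.94 to 4.89 TPM in the others of its group. Fzd8 was at 4.73 TPM in Cre 1 against 0.78 to 1.38 TPM. Wnt10a was at 8.73 TPM in control 1 against 14.2 to 14.9 TPM. Rnf43 was at 76.4 TPM in Cre 2 against 69.4 to 69.9 TPM, and Wnt2 at 1.77 TPM there against 1.56 to 1.58 TPM. Fzd7 was at 0.67 TPM in Cre 4 against 1.76 to 1.92 TPM.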

How the results depend on the processing

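Of the 17 Wnt genes past the threshold, 6 (Axin2, Rnf43, Fzd6, Wnt10a, Wnt5a and Dkk3) stayed past it in each of 24 alternatives, and no named gene past the threshold changed direction in any. The count of Wnt genes past it was 12 to 20 over 23 alternatives, and 7 without control 2, Cre 2 and Cre 4, which leaves 5 libraries. There 2560 of all genes and 19 of the other pathway genes passed. With no filter on low values, 3409 of all genes and 20 of the other pathway genes passed, among 67580 tested. Leaving out each library in turn gave 14 to 17 Wnt genes, 4006 to 4767 of all genes and 25 to 36 other pathway genes. With a replicate block 15 Wnt genes passed, 4431 of all genes and 27 other pathway genes, and the calls of Lgr5 (adjusted p = 0.0827 in limma), Lgr4 (0.0656) and Csnk1g2 (0.0543) ended, as did those of Axin1 (0.0640) and Csnk1e (0.0604) where the 5′ GC trend was also removed. Same-numbered libraries were not shown to be paired: their deviations correlated at 0.00 to 0.09 over genes in 4 pairs, and 2 of 8 libraries correlated best with their own number. Of the 20 Wnt genes not past the threshold, 6 passed in some alternative: Fzd8, Wnt9b, Wnt10b, Fzd2, Wnt5b and Wnt2. The unknown depth limits most what can be said of genes near 1 TPM, such as Lgr5 and Sfrp5.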
